A study of Mus musculus with 6 samples.

Results

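The coregulators that couple estrogen receptors to chromatin and to RNA polymerase were followed across 6 arrays of mouse skeletal muscle RNA. The 8 genes sought were Ncoa1, Ncoa2, Ncoa3, Crebbp, Ep300, Med1, Ncor1 and Nrip1, and a probe set was taken where the platform annotation gave exactly 1 gene symbol and that symbol was among the 8. This gave 27 of 45101 probe sets, for 7 of the 8 genes, and Ncor1 had none under this rule. Where a gene had several, they are named by the order of their mean value, which is a property of the probes and gives no order of RNA levels. Each probe set sums up several short probes of an Affymetrix mouse whole-genome array, and some sets can read more than 1 transcript. The OVX + E2 group held 3 samples of female C57BL/6 mice that were ovariectomized at 4 months of age and carried pellets releasing 0.18 mg of 17β-estradiol (E2) over 60 days. The OVX group held 3 samples of mice ovariectomized at the same age that carried placebo pellets. Both groups thus lacked ovaries, and no ovary-intact group was measured. No source used here states that the arrays came from separate mice, so the p-values may reflect technical spread alone.

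Nuclear receptors such as ERα act on genes through proteins that do not bind DNA themselves. A receptor holding its hormone exposes a groove that takes up short leucine-rich motifs of coactivators. The steroid receptor coactivators Ncoa1, Ncoa2 and Ncoa3 bind there and bring in the histone acetyltransferases Crebbp and Ep300, while Med1 is the subunit through which the Mediator complex, a bridge to RNA polymerase II, contacts the receptor. Ncor1 tethers a histone deacetylase complex to receptors that lack hormone. Nrip1, also called RIP140, binds receptors that hold hormone yet recruits corepressors, and in mouse muscle and fat it is known as a brake on genes of oxidative metabolism.

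The sample labels name left ventricle and the paper names soleus, while both give the same treatment, from which alone the groups were formed. Of 14 skeletal muscle genes, such as Acta1, Myh2 and Tnnt1, 14 lay in the top 5% of probe sets by mean value, against 0 of 10 heart genes such as Myh6, Nppa and Tnni3, of which 5 lay below the median. Genes of fast muscle fibres set the arrays apart. The mean of 10 fast-fibre genes such as Myh4 and Actn3 was 13.02, 12.50 and 11.19 on OVX + E2 replicates 1, 2 and 3, and 12.86, 12.96 and 13.58 on OVX replicates 1, 2 and 3. The 2 arrays numbered 3 thus stood at opposite ends. Some of the results that moved with them are also given without them, and others, such as those of Hdac3 and Nr3c1, are not. All values are log2 expression values without a fixed unit, and the small number of arrays limits their precision. In bulk tissue, fewer cells of a type and less RNA per cell cannot be told apart.

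Ep300 was the 1 coregulator whose probe set passed the unadjusted p of 0.001 that the study used for its arrays, and it fell with E2. Ncoa1 was lower on all 3 of its probe sets, and Nrip1 had the largest difference of any of the 27 probe sets, −0.46 on the log2 scale. The differences of the Ncoa3 and Med1 probe sets ran from −0.064 to 0.13. Over the 27 probe sets, 19 were below 0 and 8 above 0 in OVX + E2, with a median log2 difference of −0.057, while over all probe sets 52.3% were below 0. At the unadjusted p of 0.001 from limma, 1 member probe set was lower and none was higher, beside 0.197% lower, 0.0155% higher and 0.213% in either direction among all probe sets. At an unadjusted p under 0.05, 7 were lower and 1 was higher, beside 9.43% lower and 4.35% higher among all. In 4 member probe sets every OVX + E2 array lay below every OVX array, and in 2 every OVX + E2 array lay above, beside 11.4% and 9.76% among all. After Benjamini-Hochberg adjustment the smallest limma p was 0.308, so no member and no other probe set was called at 0.05, and 6216 probe sets had an unadjusted p under 0.05. An exact permutation test of 3 arrays against 3 cannot give a two-sided p below 0.1.

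**Figure D1:**
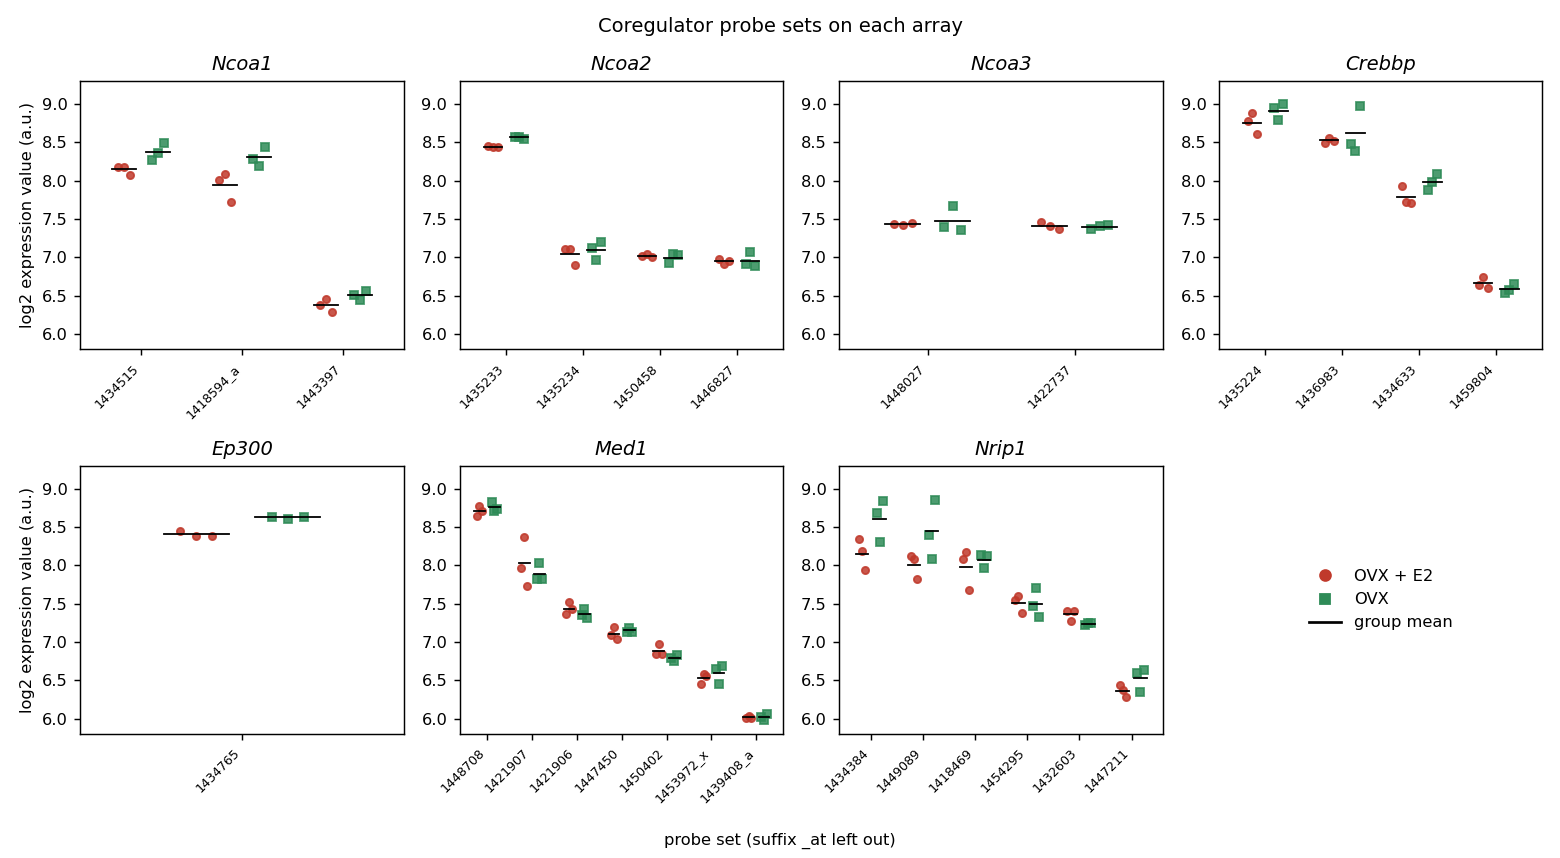
Array values (vertical axis, log2, no fixed unit) of each of the 27 probe sets (horizontal axis, 1 panel per gene, brightest first) on the OVX + E2 arrays (red circles) and the OVX arrays (green squares), with black bars at the group means. The red and green points lie apart for Ep300, the brightest and second brightest of Ncoa1, and the brightest of Ncoa2. They also do for the fifth brightest of Med1 and of Nrip1. Those of Ncoa3 and most Med1 probe sets overlap, and the Nrip1 probe sets differ in direction.

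Probe brightness moved with the difference. Across the array, for means from 8 to 9, the median log2 difference was −0.12 and 88.3% were below 0, while from 7 to 8 the median was −0.019 and from 6 to 7 it was 0.024. All 10 member probe sets between 8 and 9 were below 0, with a median of −0.19, and 5 of them had an unadjusted p under 0.05 from limma. Among all probe sets with a mean of 8 or more, 90.4% were below 0 and 32.8% were lower at that level. Of the 17 member probe sets with a mean under 8, 9 were below 0 and the median was −0.00067. Of these 17, 2 were lower and 1 was higher at an unadjusted p under 0.05, beside 3.89% and 5.26% of all probe sets under 8. After cyclic loess, a normalization that takes out such a dependence on brightness, the median over all probe sets from 8 to 9 was −0.015 and that of the 10 members with a mean of 8 or more was −0.071. Over the 27 probe sets 4 were then lower and 1 higher at an unadjusted p under 0.05, beside 4.02% and 3.57% of all.

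**Figure D2:**
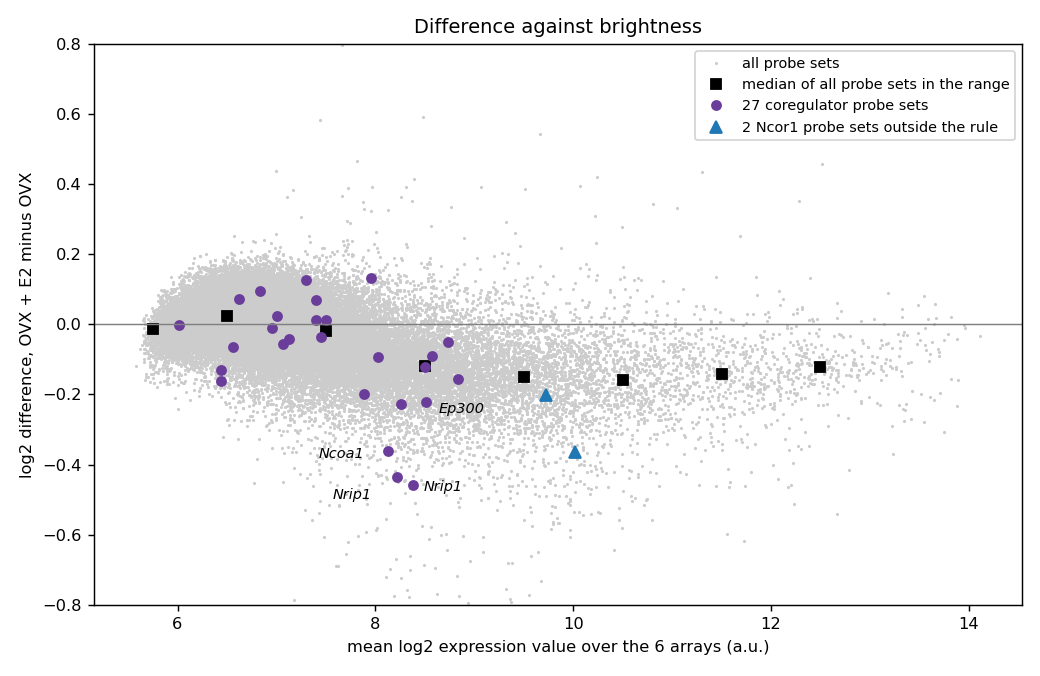
Log2 difference, OVX + E2 minus OVX (vertical axis), against brightness, the mean log2 value of the 6 arrays (horizontal axis), with every probe set in grey (23 beyond 0.8 in either direction are not drawn), the 27 coregulator probe sets in purple and 2 Ncor1 probe sets outside the rule as blue triangles. Black squares are medians of all probe sets per range of 1 unit, the last for 12 and above. The Nrip1, Ncoa1 and Ep300 points named in the plot lie below the square of their range, −0.12.

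Ep300 encodes p300, an acetyltransferase of histones that acts for many transcription factors. It lies on chromosome 15 from 81586209 to 81652077 (GRCm38.p6), and the annotation gives it 1 probe set. Ep300 measured 8.44, 8.38 and 8.39 in OVX + E2, against 8.63, 8.61 and 8.63 in OVX. The groups did not overlap, and the gap between them was wider than the spread within either. The log2 difference was −0.22 (standard error 0.037), or 0.858 times, with an unadjusted p of 0.00049 and an adjusted p of 0.308 from limma. After cyclic loess it was −0.11, with an unadjusted p of 0.0208 and an adjusted p of 0.652 from limma, and without both arrays numbered 3 it was −0.21. The unadjusted threshold of 0.001 was also missed when any single array was left out (log2 difference −0.24 to −0.21).

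The promoter windows of Ep300 and Nrip1 are shown because these genes had the smallest p and the largest difference among the coregulators. Nrip1 had 2 windows, and the one printed is the one that holds GGTCA. Each is 300 bases around a RefSeq start site (GRCm38.p6), read 5′ to 3′ on the strand of the gene. Capitals mark GGTCA, the core of 1 arm of the estrogen response element, and the first line holds none.
Ep300 promoter, chr15:81585964-81586263, plus strand: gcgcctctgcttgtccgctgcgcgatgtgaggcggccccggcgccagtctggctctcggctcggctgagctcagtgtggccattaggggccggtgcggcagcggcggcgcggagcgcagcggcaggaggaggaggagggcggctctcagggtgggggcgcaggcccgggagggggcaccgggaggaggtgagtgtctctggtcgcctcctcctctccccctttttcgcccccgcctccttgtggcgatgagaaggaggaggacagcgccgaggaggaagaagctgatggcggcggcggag
Nrip1 promoter, chr16:76373778-76374077, minus strand: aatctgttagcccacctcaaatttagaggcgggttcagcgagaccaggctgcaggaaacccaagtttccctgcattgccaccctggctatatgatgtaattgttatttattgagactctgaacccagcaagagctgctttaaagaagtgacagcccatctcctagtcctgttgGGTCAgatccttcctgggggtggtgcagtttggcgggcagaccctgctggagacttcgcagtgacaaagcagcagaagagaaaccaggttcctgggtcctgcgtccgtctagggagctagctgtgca
The table held 8 windows for 6 of the genes, with 2 each for Nrip1 and Ncor1, and the search covered both strands. The full element, an inverted repeat of GGTCA with 3 bases between the arms, was in none of the 8, beside 0.07% of all 32851 windows, and each full element also holds the single arm. The single arm was in 1 of the 8, the Nrip1 window printed above, at position −77 from the start site, beside 40.5% of all windows. These counts describe letters in short windows only, and Ncoa2 and Ncoa3 were not among the windows.

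Crebbp encodes CBP, the close relative of p300, on chromosome 16 from 4081334 to 4213957. Its brightest probe set measured 8.78, 8.88 and 8.60 in OVX + E2, against 8.95, 8.79 and 8.996 in OVX. The groups overlapped, and the log2 difference was −0.16 with a 95% confidence interval from −0.35 to 0.04. The third brightest probe set measured 7.92, 7.73 and 7.71 in OVX + E2, against 7.88, 7.99 and 8.08 in OVX. Its difference of −0.20 (standard error 0.075, limma unadjusted p of 0.0334 and adjusted p of 0.344) was −0.13 after cyclic loess, with an adjusted p of 0.682. The second brightest probe set was high on a single array, OVX replicate 3, at 8.98, with 8.39 to 8.56 on the others, and its difference of −0.092 turned to 0.088 without OVX replicate 3 and to 0.021 after cyclic loess. The dimmest differed by 0.073. The difference between Crebbp and Ep300 was not tested.

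Ncoa1, the founding member of the steroid receptor coactivators, lies on chromosome 12 from 4247362 to 4477206 and has 3 probe sets. The brightest probe set measured 8.19, 8.18 and 8.08 in OVX + E2, against 8.27, 8.36 and 8.49 in OVX. The second brightest probe set measured 8.01, 8.09 and 7.73 in OVX + E2, against 8.28, 8.19 and 8.44 in OVX. On both, every OVX + E2 array was below every OVX array. Their log2 differences were −0.23 (standard error 0.063) and −0.36 (standard error 0.10), with adjusted p-values of 0.308 and 0.309 from limma. The third measured 6.38, 6.46 and 6.29 in OVX + E2, against 6.51, 6.44 and 6.56 in OVX, a difference of −0.13 with overlap between the groups. After cyclic loess the 3 differences were −0.13, −0.28 and −0.15 (limma unadjusted p of 0.0545, 0.0185 and 0.0285, and adjusted p of 0.656, 0.652 and 0.652). On all 3 probe sets OVX replicate 3 was the highest and OVX + E2 replicate 3 the lowest array, as for the fast-fibre mean. Without both arrays numbered 3 the differences were −0.13, −0.19 and −0.060, and with the fast-fibre mean as a covariate −0.14, −0.18 and −0.067. As the mean of its 3 probe sets on each array, Ncoa1 differed by −0.24 (standard error 0.070).

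Ncoa2, also known as GRIP1 or TIF2, lies on chromosome 1 from 13139105 to 13374227. Its brightest probe set measured 8.45, 8.44 and 8.44 in OVX + E2, against 8.57, 8.58 and 8.55 in OVX. The SD was 0.0087 in OVX + E2, the smallest of the 27 probe sets in that group, and 0.015 in OVX (n = 3 each), and the groups did not overlap. The log2 difference of −0.12 (standard error 0.034, limma unadjusted p of 0.00855 and adjusted p of 0.308) equals the median of −0.12 over all probe sets from 8 to 9. After cyclic loess it was −0.013, with a 95% confidence interval from −0.10 to 0.077, and after quantile normalization it was 0.0018. The other 3 Ncoa2 probe sets, with means from 6.95 to 7.07, differed by −0.057, 0.024 and −0.0096, and the first of these shares its source sequence with the brightest one.

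Ncoa3, a coactivator that is amplified in some human breast cancers, lies on chromosome 2 from 165992640 to 166073240. The brightest probe set measured 7.44, 7.42 and 7.45 in OVX + E2, against 7.39, 7.66 and 7.36 in OVX. The second brightest probe set measured 7.46, 7.41 and 7.37 in OVX + E2, against 7.37, 7.40 and 7.42 in OVX. Both overlapped between the groups. The differences were −0.035 (95% confidence interval −0.22 to 0.15) and 0.014 (−0.080 to 0.11). The difference between Ncoa1 and Ncoa3 was not tested.

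**Figure D3:**
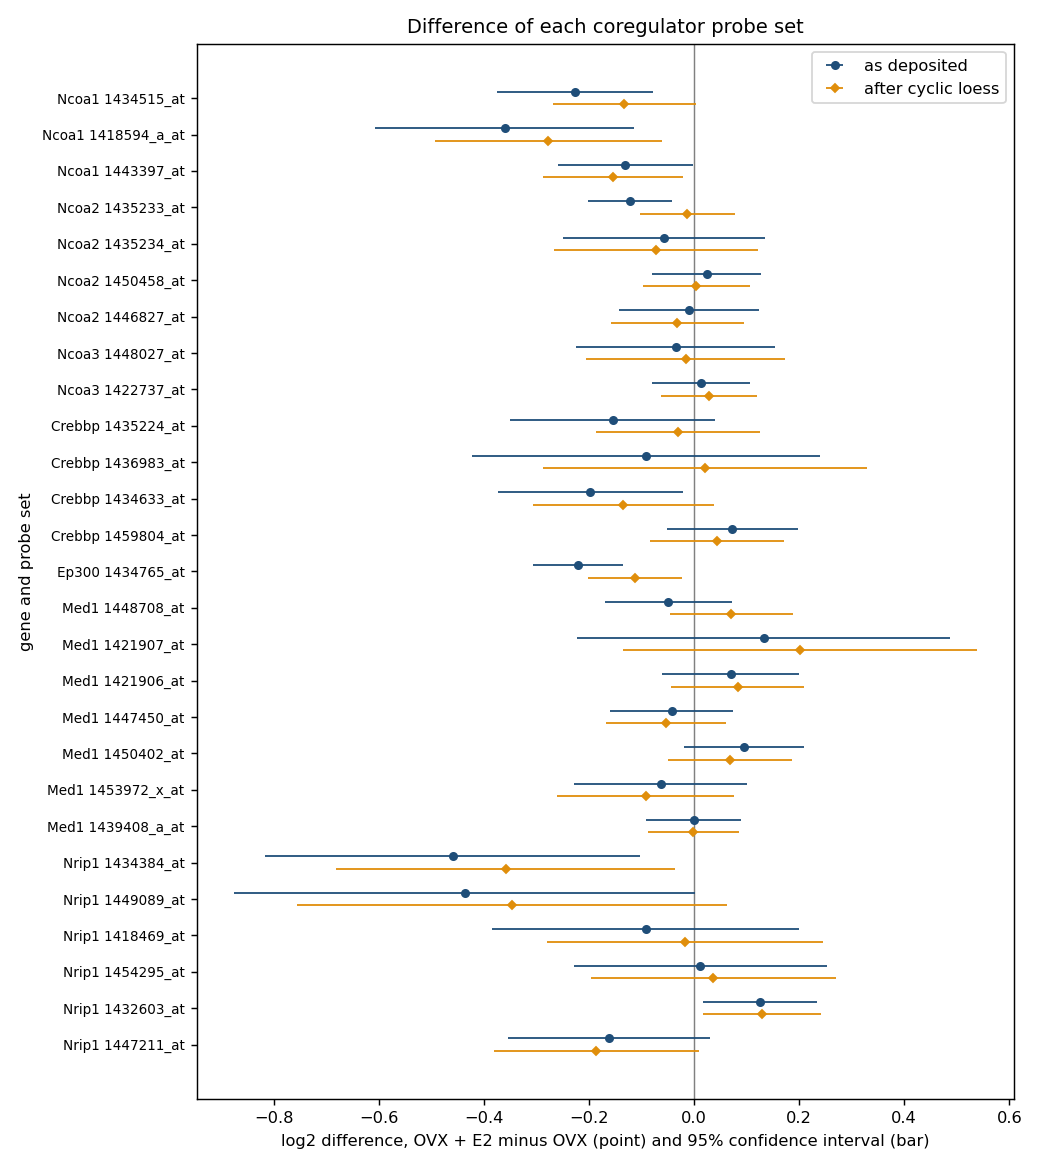
Log2 difference, OVX + E2 minus OVX (horizontal axis), of each of the 27 probe sets (vertical axis), as deposited in blue and after cyclic loess in orange, with bars for the 95% confidence interval of limma. Both intervals lie below 0 for Ep300 (−0.22 as deposited and −0.11 after cyclic loess) and the brightest of Nrip1 (−0.46 and −0.36). They also do for the second brightest of Ncoa1 (−0.36 and −0.28) and the third of Ncoa1 (−0.13 and −0.15). The fifth brightest of Nrip1 (0.13 and 0.13) has both intervals above 0. The brightest of Ncoa2 is at −0.12 and −0.013 with the second interval across 0.

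Med1, the receptor-binding subunit of Mediator, lies on chromosome 11 from 98152154 to 98193313 and has 7 probe sets. The brightest measured 8.64, 8.77 and 8.71 in OVX + E2, against 8.83, 8.71 and 8.73 in OVX. Its difference of −0.049 (95% confidence interval −0.17 to 0.072) turned to 0.071 after cyclic loess and 0.090 after quantile normalization. Over the 7 probe sets 4 were below 0 and 3 above, from −0.064 to 0.13, and none had an unadjusted p under 0.05 from limma. The 3 above 0, the second, the third and the fifth in brightness, were designed from the same source sequence and are not independent of each other. Of these, the fifth measured 6.84, 6.97 and 6.85 in OVX + E2, against 6.79, 6.75 and 6.82 in OVX, with no overlap and a difference of 0.096 (limma unadjusted p of 0.0883, adjusted p of 0.412). The value of the second brightest rested on 1 array, OVX + E2 replicate 2 at 8.36, without which its difference of 0.13 became −0.038.

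Nrip1 lies on chromosome 16 from 76287403 to 76373827, and its 6 probe sets did not move as one. The brightest probe set measured 8.34, 8.18 and 7.93 in OVX + E2, against 8.68, 8.31 and 8.84 in OVX. The second brightest probe set measured 8.12, 8.08 and 7.82 in OVX + E2, against 8.39, 8.08 and 8.85 in OVX. Both overlapped, since OVX + E2 replicate 1 lay above OVX replicate 2, and on both OVX replicate 3 was the highest and OVX + E2 replicate 3 the lowest array. The differences were −0.46 (standard error 0.15, limma unadjusted p of 0.0186 and adjusted p of 0.320) and −0.44 (standard error 0.19, limma unadjusted p of 0.0505 and adjusted p of 0.364).

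The fast-fibre mean, given above, had the same highest and lowest arrays. With that mean as a covariate the Nrip1 differences were −0.24 and −0.19, and without both arrays numbered 3 they were −0.24 and −0.14, with unadjusted p-values from limma of 0.108 to 0.345. Both alternatives were chosen after seeing the data. The fast-fibre mean itself differed by −0.90 between the groups, so with 6 arrays the covariate and the treatment cannot be told apart. Of the 10 fast-fibre genes 10 were below 0 and 2 had an unadjusted p under 0.05 from limma. Among all probe sets, 93.5% of those with a mean from 11 to 12 and 91.1% of those from 12 up were below 0. Of all probe sets with a mean of 8 or more 32.8% were lower at that p. Fat cell genes such as Adipoq, another known site of Nrip1 expression, had a list mean of 7.26 to 7.71 in OVX + E2 and 7.02 to 8.12 in OVX, with 1 of 4 measured genes below 0, and OVX replicate 3 was the lowest array. The part of fast fibres or of fat cells in the Nrip1 values was not tested.

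The other 4 Nrip1 probe sets differed by less or in the other direction. The fifth brightest probe set measured 7.40, 7.28 and 7.40 in OVX + E2, against 7.22, 7.24 and 7.24 in OVX. It was the 1 member probe set that was higher at an unadjusted p under 0.05, with no overlap and a difference of 0.13 (standard error 0.046, limma unadjusted p of 0.0295, adjusted p of 0.337), and 0.13 again after cyclic loess. The fourth brightest, designed from the same source sequence, differed by 0.012. Likewise the third brightest, which shares its RefSeq source with the second, differed by −0.092 and lay at 8.08, 8.17 and 7.68 in OVX + E2, against 8.13, 7.96 and 8.12 in OVX. The dimmest differed by −0.16. The annotation table gives no position of the probes within the transcripts, so it was not tested whether these probe sets read different ends or isoforms. As the mean of its 6 probe sets, Nrip1 differed by −0.17 (standard error 0.081).

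**Figure D4:**
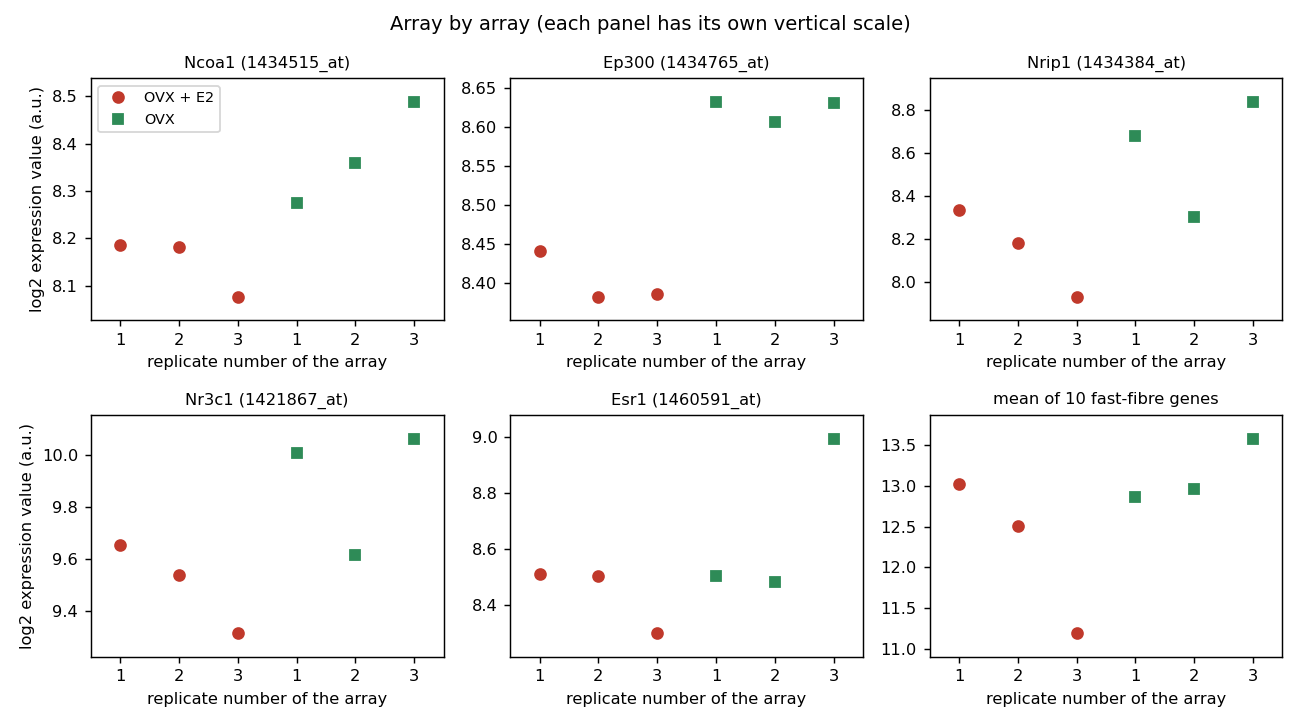
Array values (vertical axis, log2, own scale in each panel), with OVX + E2 replicates 1 to 3 as red circles on the left and OVX replicates 1 to 3 as green squares on the right, for Ncoa1, Ep300, Nrip1, Nr3c1 and Esr1 probe sets and for the mean of 10 fast-fibre genes. Ep300 separates the groups with little spread. In the other panels, also that of Ncoa1, OVX replicate 3 is at the top and OVX + E2 replicate 3 at the bottom.

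Ncor1, on chromosome 11 from 62315663 to 62457414, was paired with no probe set by the annotation used here. A pair of probe sets bear its name in a supplementary gene list, which was selected for the treatment difference on these same arrays, and they are therefore described without a test. The first measured 9.63, 9.60 and 9.65 in OVX + E2, against 9.82, 9.81 and 9.85 in OVX. The second measured 9.93, 9.83 and 9.73 in OVX + E2, against 10.10, 10.19 and 10.30 in OVX. On both, every OVX + E2 array lay below every OVX array, with log2 differences of −0.20 and −0.36, among probe sets whose median difference was −0.15 (mean from 9 to 10) and −0.16 (mean from 10 to 11). After cyclic loess the 2 differences were −0.053 and −0.21.

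With 1 probe set per gene, the brightest, all 7 measured coregulator genes were below 0, beside 55% of 18194 genes, with a median of −0.16. Their means ran from 7.45 to 8.83, and 90.4% of all probe sets with a mean of 8 or more were below 0. At an unadjusted p under 0.05 from limma 4 of the 7 were lower, namely Ncoa1, Ncoa2, Ep300 and Nrip1, and none was higher. Beside this stand 13.3% lower and 4.62% higher of the 18194 genes, and 32.8% lower of all probe sets with a mean of 8 or more. After cyclic loess 6 of the 7 were below 0, with a median of −0.031. Of these, 2 were lower at an unadjusted p under 0.05 from limma, Ep300 and Nrip1, beside 3.3% of all genes. Of the fibroblast genes, such as Dcn and Col3a1, 6 of 6 were below 0, 3 of them at an unadjusted p under 0.05 from limma, with a list mean of 9.08 to 9.35 in OVX + E2 and 9.26 to 9.64 in OVX. Their part in the coregulator values was not tested.

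Most partners of the coregulators were below 0 as deposited and fewer were after cyclic loess. As deposited, 55% of all genes were below 0 on their brightest probe set and 13.3% were lower at an unadjusted p under 0.05 from limma. Among probe sets with a mean of 8 or more these shares were 90.4% and 32.8%. After cyclic loess 3.3% of all genes were lower at that p on their brightest probe set. The counts of the lists that follow stand beside these shares. The median level of the corepressor partners, other coactivators, Mediator subunits and receptors was 8.24, 8.59, 8.19 and 8.31. Of 15 measured corepressor partners 15 were below 0 (median −0.16) and 9 were lower at an unadjusted p under 0.05 from limma. Among them Hdac5, a class II histone deacetylase of muscle, differed by −0.23, Tbl1x, a subunit of the Ncor1 complex, by −0.22 and Ctbp1, a corepressor that binds Nrip1, by −0.26. Hdac3, the deacetylase of the Ncor1 complex, measured 8.66, 8.67 and 8.27 in OVX + E2, against 8.65, 8.70 and 8.84 in OVX, a difference of −0.19 with overlap. After cyclic loess 12 of the 15 were below 0 (median −0.076) and 2 were lower at that level, Tbl1x at −0.15 and Lcor, a ligand-dependent corepressor named after its values were seen, at −0.22.

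Of 16 other coactivators and modifying enzymes 15 were below 0 (median −0.10) and 3 were lower at an unadjusted p under 0.05 from limma. These were Ddx17 (−0.20), an RNA helicase, Pelp1 (−0.16), an estrogen receptor coregulator, and Carm1 (−0.25), the arginine methyltransferase that binds the steroid receptor coactivators. After cyclic loess 8 of 16 were below 0 and none was under 0.05. Of 32 Mediator subunits other than Med1, 29 were below 0 (median −0.096) and 9 were lower at an unadjusted p under 0.05 from limma. The smallest p-values were those of Med13 (−0.29), of the kinase module, Med28 (−0.15) and Med18 (−0.14). With the fast-fibre covariate the count of 9 was 1. It was 3 when OVX + E2 replicate 3 was left out, 4 when OVX + E2 replicate 1 was, and 3 when both arrays numbered 3 were. After cyclic loess 18 of 32 were below 0, 1 was lower at that level, which was Med13 at −0.16, and Med28 and Med18 were at 0.0019 and 0.010.

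The receptors themselves showed no called difference in ERα or ERβ. Esr1, which encodes ERα, measured 8.51, 8.50 and 8.30 in OVX + E2, against 8.50, 8.48 and 8.99 in OVX, on its brightest probe set. The difference of −0.22 had a 95% confidence interval from −0.55 to 0.11 and was 0.015 without both arrays numbered 3. The dimmer Esr1 probe sets, with means of 6.91 and 6.87, differed by 0.031 and −0.076. Esr2, for ERβ, differed by 0.052 (95% confidence interval −0.063 to 0.17), and Gper1, the membrane estrogen receptor, by 0.011 (−0.13 to 0.16), both at means near the median of the arrays. Of 25 measured receptors 16 were below 0 (median −0.061) and 5 were lower at an unadjusted p under 0.05 from limma. Ppard, a fatty acid receptor of muscle, measured 7.62, 7.58 and 7.55 in OVX + E2, against 7.79, 7.74 and 7.81 in OVX, a difference of −0.19, and −0.15 after cyclic loess. Rxra, the shared dimer partner of many receptors, differed by −0.25 and Nr3c1, the glucocorticoid receptor, by −0.39. The other 2 were the thyroid hormone receptor Thra (−0.22) and Rxrb (−0.12), named after their values were seen, and after cyclic loess only Ppard of the 25 was under 0.05. The count of 5 was 3 without any 1 of the OVX + E2 arrays, 2 without OVX replicate 3, and 1 without both arrays numbered 3 or with the fast-fibre covariate. The 13 genes known as estrogen targets in other tissues had a median level of 7.90, with Greb1 at 7.07 and Pgr at 6.73. Of these 13, 6 were below 0 (median 0.013) and none had an unadjusted p under 0.05 from limma. After cyclic loess 1 of the 13 was higher at that level, beside 3.57% of all probe sets. It was Tff1 at 0.26 (limma unadjusted p of 0.00072), named after its values were seen. The smallest adjusted limma p over all probe sets was then 0.652. Without OVX replicate 3 the count under 0.05 in either direction was 2, and without both arrays numbered 3 it was 3. The share of all genes in these fits is not given here.

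**Figure D5:**
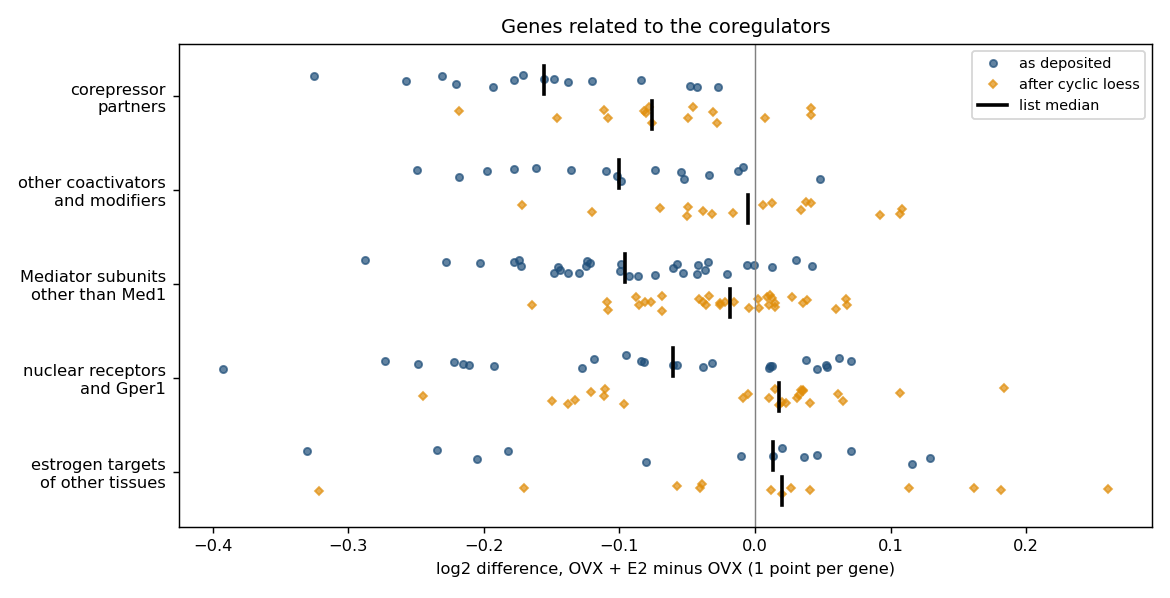
Log2 difference, OVX + E2 minus OVX (horizontal axis), of each gene in 5 lists related to the coregulators (vertical axis), as deposited in blue and after cyclic loess in orange, with black bars at the list medians. The medians of the corepressor partners, other coactivators and Mediator subunits lie at −0.16, −0.10 and −0.096 as deposited and at −0.076, −0.0053 and −0.019 after cyclic loess.

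The genes whose array values ran most like each coregulator were found by centring each gene on its own mean and taking the root mean square difference over the 6 arrays, among 5328 genes with a mean of 8 or more. For Nrip1 they were Nr3c1 (0.050) and Ghr, the growth hormone receptor (0.052), where Nrip1 itself varied by 0.30 around its mean. Nr3c1 measured 9.65, 9.54 and 9.31 in OVX + E2, against 10.01, 9.61 and 10.06 in OVX, with the dip on OVX replicate 2 that Nrip1 also had. For Ncoa1, which varied by 0.13, they were Chd4, a chromatin remodeller (0.020), and Ogt, the O-GlcNAc transferase (0.022). For Ep300, which varied by 0.11, they were Antkmt (0.011) and Naxe (0.015), and for Crebbp, with 0.13, Tmem11 and Bclaf1 (0.018 each). Ncoa2 (0.062) was closest to Snx2 (0.0087) and Dus1l (0.0100), and Med1 (0.058) to Gpkow (0.014) and Txndc9 (0.017). All share the same 6 arrays, so likeness includes whatever sets these arrays apart, and Ncoa3 was too dim to be searched.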

How the data were processed

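RNA of 3 OVX + E2 and 3 OVX samples was hybridized to 1 array each. The authors deposited log2 values, made in R 2.14.2 by background correction, variance stabilizing normalization and median polish over probes. The leading results took these values as they were. This scale compresses differences of dim probe sets. Of 45101 probe sets 34958 had 1 gene symbol in the platform annotation, 932 several and 9211 none. Gene positions and promoter windows are RefSeq's for GRCm38.p6, where Entrez identifiers of the 7 measured genes matched.

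Every probe set entered a two-sided limma test (version 3.58.1, R 4.3.3, lmFit then eBayes, OVX + E2 minus OVX, no covariate). Benjamini-Hochberg adjustment was over all probe sets. The procedure was tested on simulated data with independent noise, which lacked the dependence of the difference on brightness seen here. Related genes were counted on their brightest probe set. All members and lists were chosen with earlier results of these data known. Named genes are every member, the 3 with the smallest p per list and direction under 0.05, Esr1, Esr2, Gper1 and Hdac3, and the 2 nearest genes of each member with a mean of 8 or more. Alternatives were quantile normalization, cyclic loess (3 iterations), median centring, a brightness filter, an intensity trend, a block for replicate numbers, another probe set per gene and leaving out arrays. Added after seeing the data were a fit without both arrays numbered 3 and one with the fast-fibre mean as a covariate. Probe-level scans, detection calls and protein sequences were not used here, and 1 item of the rule is not reported here.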

Additional observations from a re-analysis of the deposited data

How the results depend on the processing

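The median over the 27 probe sets (−0.057) was −0.0067 after quantile normalization, −0.017 after cyclic loess, −0.027 with the fast-fibre covariate and −0.029 without both arrays numbered 3. The mean of the 27 probe sets on each array had an SD of 0.061 between arrays of the same group. The median difference ran from −0.12 to −0.036 when single arrays were left out. The count at 0.001 was 1, and was 0 after quantile normalization, after cyclic loess, with the brightness filter, with the replicate block, with the intensity trend, with the fast-fibre covariate and when both arrays numbered 3 were left out, and 0 to 0 without single arrays. Over all probe sets the count at 0.001 was 96 as deposited, 31 after quantile normalization and 31 after cyclic loess. For Ep300 the log2 difference was −0.096 after quantile normalization. The count under 0.05 (8) was 4 after quantile normalization, 5 after cyclic loess, 5 with the replicate block, 4 without both arrays numbered 3, 2 with the covariate and 4 to 10 without single arrays (4 without OVX + E2 replicate 3 and also without OVX replicate 3, 5 without OVX replicate 1). Over all probe sets the count under 0.05 fell as well, from 6216 as deposited to 3510 after quantile normalization and 3424 after cyclic loess. For the other alternatives it is not given here. The count of genes on their brightest probe set (4) was 1 after quantile normalization, 2 after cyclic loess, 2 with the covariate, 2 on the mean of all probe sets and 3 to 5 without single arrays. Over the 5 related lists 26 genes were under 0.05, against 6 after quantile normalization, 5 after cyclic loess, 17 with the trend, 12 with the covariate and 15 to 30 without single arrays, with 15 when OVX + E2 replicate 3 was left out and 17 when it was OVX + E2 replicate 1. Of all genes on their brightest probe set, 13.3% were lower and 4.62% higher under 0.05 as deposited, and 3.3% were lower after cyclic loess. The other coactivators (3) ran from 3 to 6 without single arrays, with 5 without OVX + E2 replicate 2 and 6 without OVX replicate 2. By list, the counts after quantile normalization were 2 of the corepressor partners, 0 of the other coactivators, 1 of Mediator, 2 of the receptors and 1 of the estrogen targets. The cause of these changes was not tested. Deviations from the group mean correlated at −0.13, −0.20 and −0.34 for same-numbered arrays, and from −0.24 to 0.33 for differently numbered ones. The deviations of the 3 arrays of a group sum to 0, so this cannot decide whether replicate numbers pair the arrays. With the replicate block the unadjusted p of Ep300 from limma was 0.0032.

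Signs turned for the differences below (probe sets by brightness within the gene), most of them near 0 as deposited, but also for the brightest Ncoa2 (−0.12), Med28 (−0.15), Med18 (−0.14), Hdac3 (−0.19) and Esr1 (−0.22). After quantile normalization these were 0.0018 for the brightest Ncoa2, 0.045 for the second brightest Crebbp, 0.090 for the brightest Med1, 0.031 for Med18 and 0.029 for Med28. After cyclic loess they were 0.021 for the second brightest Crebbp, 0.071 for the brightest Med1, 0.010 for Med18, 0.0019 for Med28 and −0.0087 for Gper1. After median centring they were −0.0031 for the second brightest Ncoa3, −0.0049 for the fourth brightest Nrip1 and −0.0055 for Gper1. Without both arrays numbered 3 they were 0.067 for the second brightest Ncoa2, 0.091 for the second brightest Crebbp, 0.025 for the dimmest Med1, 0.080 for the third brightest Nrip1, −0.0095 for the fourth brightest Nrip1, 0.015 for Esr1 and −0.017 for Gper1. With the fast-fibre covariate they were 0.067 for the second brightest Ncoa2, 0.0071 for the second brightest Crebbp, 0.016 for the dimmest Med1, 0.11 for the third brightest Nrip1, 0.014 for Hdac3 and −0.023 for Gper1. With single arrays left out the differences ran from −0.12 to 0.014 for the second brightest Ncoa2, −0.012 to 0.046 for the third brightest Ncoa2, −0.045 to 0.048 for the dimmest Ncoa2, −0.093 to 0.062 for the brightest Ncoa3, −0.0096 to 0.036 for the second brightest Ncoa3 and −0.20 to 0.088 for the second brightest Crebbp. They ran from −0.038 to 0.28 for the second brightest Med1, −0.022 to 0.020 for the dimmest Med1, −0.19 to 0.055 for the third brightest Nrip1, −0.076 to 0.11 for the fourth brightest Nrip1 and −0.044 to 0.064 for Gper1.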
